A study of Mus musculus with 2 samples.

Results

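The MHC class I presentation genes described here are the heavy chains H2-K1 and H2-D1, the light chain B2m, the peptide transport and loading genes Tap1, Tap2 and Tapbp, the immunoproteasome genes Psmb8, Psmb9 and Psmb10, and the transactivator Nlrc5. They were taken by symbol from a list of the pathway and not by their measured values. All 10 of 10 were found among the 55450 genes of the deposited matrices, and each symbol matched 1 gene ID.

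Class I molecules display peptides from inside the cell to CD8 T cells, and their absence from the surface is sensed by NK cells. Peptides are cut by the proteasome, carried into the endoplasmic reticulum by the TAP transporter, and loaded with the help of tapasin onto a heavy chain paired with β2-microglobulin. Interferons raise transcription of the whole pathway, in part through NLRC5. B16F10, a transplantable mouse melanoma line, is known for low class I expression that interferon-gamma can raise.

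The cells were CD45+ cells sorted from subcutaneous B16F10 tumours at day 10 and captured with the 10x Chromium 3' kit, which counts unique molecular identifiers (UMIs) at the 3' end of transcripts. The KO library came from Lyz2-Cre-Kcnj2f/f mice, in which Cre is driven by Lyz2, a gene of monocytes, macrophages and neutrophils, and Kcnj2, the gene of the potassium channel Kir2.1, is floxed. The WT library came from Kcnj2f/f mice, which carry the same floxed allele without Cre. Each library pooled 3 mice, and there was 1 library per genotype. There is therefore no replicate error and no test between genotypes. Every interval below is a 95% interval that covers counting error only.

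The KO library held 57047535 UMIs in 6356 barcodes, of which 5686 were kept, and the WT library held 55219440 UMIs in 9677 barcodes, of which 8936 were kept. Kept KO cells had a median of 8013 UMIs and kept WT cells a median of 4398.5. Cells were grouped by clustering into 12 classes named from marker genes and called macrophage-like and so on, and 653 KO and 2018 WT immune cells stayed unnamed. Levels are counts per 1000000 UMIs summed over the cells of a class (CPM). In macrophage-like cells Kcnj2 stood at 10.0 CPM in KO cells and 25.2 in WT cells, and Lyz2 at 1524 and 7975. In monocyte-like cells Kcnj2 stood at 1.74 CPM in KO and 8.65 in WT cells, from 7 and 20 UMIs, and Lyz2 at 7591 and 18071. The labels do not say which part of Kcnj2 is deleted, so 3' counts that remain do not test the deletion. As a gauge of free RNA or doublets, which were not told apart, a UMI of Lyz2, which T cells should not express, was seen in 1.67% of KO and 3.22% of WT cells of the CD8 T cell-like class after thinning to 1000 UMIs per cell. Because Lyz2 itself stood lower in KO macrophage-like and monocyte-like cells, these shares do not compare free RNA or doublets between the libraries.

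Both libraries shared 61 kept barcodes. Of these, 45 were melanoma-like in each library, which is 47.4% of KO and 35.4% of WT melanoma-like cells, against 0.286% of KO and 0.182% of WT immune cells. Among 44 barcodes that were melanoma-like in both libraries, 27 had totals within 1.2-fold of each other, at 511 to 1178 UMIs. The other 17 differed by over 100-fold, with 140842 to 264591 UMIs in the larger library and 512 to 824 in the smaller. The cause of this sharing was not tested. Results on melanoma-like cells are given with and without these barcodes. In immune classes their removal moved no median of the 10 genes beyond its counting interval.

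Of the 10 genes, 7 lie in the MHC region of chromosome 17. In the GRCm38 build with GENCODE M21 annotation, H2-K1 spans 33996017 to 34000347 on the minus strand, and H2-D1 spans 35262730 to 35267499 on the plus strand. Between them lie Psmb9 (34181987 to 34187764, minus), Tap1 (34187553 to 34197225, plus), Psmb8 (34197721 to 34201454, plus) and Tap2 (34203527 to 34216321, plus). The annotations of Psmb9 and Tap1 overlap by 212 bases head to head. Tapbp spans 33915899 to 33929292 on the plus strand of the same chromosome. B2m lies on chromosome 2 (122147686 to 122153083, plus), and Psmb10 (105935735 to 105938444, minus) and Nlrc5 (94434356 to 94527272, plus) lie on chromosome 8. Counts at the 3' end could mix related genes, so windows of 91 bases in the last 500 bases of each transcript were compared with those of all other genes. For H2-K1, 1 of 1323 windows was shared, with H2-D1, H2-Q1, H2-Q6 and H2-Q7, and for the other 9 genes none was counted. H2-D1 is among these 9, so its count does not match that of H2-K1, and the cause was not tested.

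Promoter sequence was available from RefSeq (GRCm38.p6) for 8 of the 10 genes, all but Tap2 and Nlrc5. Each window runs from 250 bases before to 50 bases after the annotated start. The 4 windows printed here are those of the class I chains, whose levels went together over classes, and of Tap1, which followed another order. Whether their letters bear on these orders was not tested. Capitals mark the letters AANNGAAA, or GAAA followed by any 2 bases and GAAA again, the cores of interferon response elements, and the box CCAAT, each on either strand, so that TTTCACTT and ATTGG are reverse complements. The windows of H2-K1 (chr17:34000298-34000597, minus strand), H2-D1 (chr17:35262844-35263143, plus), B2m (chr2:122147437-122147736, plus) and Tap1 (chr17:34187306-34187605, plus) read as follows.
H2-K1: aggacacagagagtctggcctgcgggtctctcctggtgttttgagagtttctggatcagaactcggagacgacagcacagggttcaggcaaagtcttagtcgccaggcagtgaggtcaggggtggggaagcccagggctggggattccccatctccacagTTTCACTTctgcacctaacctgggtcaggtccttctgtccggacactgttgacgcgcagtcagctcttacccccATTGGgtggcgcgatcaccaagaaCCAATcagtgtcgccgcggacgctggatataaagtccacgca
H2-D1: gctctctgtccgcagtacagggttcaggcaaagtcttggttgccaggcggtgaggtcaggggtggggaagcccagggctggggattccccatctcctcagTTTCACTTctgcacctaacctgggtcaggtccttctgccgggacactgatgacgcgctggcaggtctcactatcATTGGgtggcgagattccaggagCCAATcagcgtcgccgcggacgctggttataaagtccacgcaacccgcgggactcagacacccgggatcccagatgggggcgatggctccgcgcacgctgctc
B2m: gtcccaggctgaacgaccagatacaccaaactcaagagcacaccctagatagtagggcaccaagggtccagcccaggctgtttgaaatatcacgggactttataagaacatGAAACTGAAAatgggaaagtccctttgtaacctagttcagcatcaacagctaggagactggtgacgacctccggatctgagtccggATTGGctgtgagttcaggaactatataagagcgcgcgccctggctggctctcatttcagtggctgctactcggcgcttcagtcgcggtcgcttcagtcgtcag
Tap1: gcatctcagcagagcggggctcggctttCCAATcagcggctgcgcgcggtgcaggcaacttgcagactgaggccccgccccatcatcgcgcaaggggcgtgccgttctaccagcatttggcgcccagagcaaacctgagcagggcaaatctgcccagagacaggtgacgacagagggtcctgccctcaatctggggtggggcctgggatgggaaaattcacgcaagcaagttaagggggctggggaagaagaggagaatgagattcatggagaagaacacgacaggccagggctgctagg

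The letters AANNGAAA on either strand were found in the windows of H2-K1, H2-D1 and B2m, 3 of 8, against 23.9% of all 32851 promoter windows in the table. The longer core, which contains AANNGAAA, was found in B2m only, against 3.44% of all windows. CCAAT was found in 6 of 8 (H2-K1, H2-D1, B2m, Tap1, Tapbp and Psmb9) against 37.4%, and TGACG, the core of cyclic AMP response elements, in 5 of 8 (the same genes without Tapbp) against 20.8%. TTCNNNGAA, the core of STAT sites, was found in Psmb8 only, against 8.30%. The Tap1 window overlaps that of Psmb9 (34187281 to 34187580) on the other strand, so both hold the same CCAAT and TGACG letters. These matches describe letters in a window and not binding.

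Both heavy chains were highest in NK cell-like cells, and the light chain in CD4 T cell-like or migratory dendritic cell (DC)-like cells. H2-K1, a classical heavy chain, stood at 3140 CPM in KO and 2979 in WT NK cell-like cells. In CD4 T cell-like cells it stood at 3080 in KO and 2592 in WT cells. The intervals of these 2 classes overlapped in the KO library and not in the WT library. At the other end were type 1 conventional DC (cDC1)-like cells, at 845 CPM in KO and 817 in WT cells, and melanoma-like cells, at 341 and 324.

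H2-D1, the other classical heavy chain, was also highest in NK cell-like cells, at 2373 CPM in KO and 2353 in WT cells. It was lowest among the 10 immune classes with at least 100 cells per library in cDC1-like cells, at 1123 and 1008. B2m, the light chain shared by all class I molecules, was highest in CD4 T cell-like cells of the KO library, at 3049 CPM, and in migratory DC-like cells of the WT library, at 3000. In cDC1-like cells it stood at 1198 in KO and 1182 in WT cells. Neutrophil-like cells, with 24 KO and 133 WT cells, enter levels but no ratio.

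Peptide transport and the immunoproteasome followed another order, led by cDC1-like cells, which are known for cross-presentation. Tap1, a subunit of the transporter, stood at 360 CPM in KO and 319 in WT cDC1-like cells, and the class next to it, migratory DC-like cells, at 236 and 234. Its partner subunit Tap2 stood at 161 in KO and 160 in WT cDC1-like cells, against 137 in KO and 132 in WT CD4 T cell-like cells; the intervals of these classes overlapped in the KO library. Both subunits were thus highest in the same class in both libraries, and they lay lowest in melanoma-like cells, where Tap1 stood at 27.1 in KO and 16.3 in WT cells.

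Psmb8 and Psmb9 encode inducible catalytic subunits that replace constitutive ones in the immunoproteasome. Psmb8 stood at 1348 CPM in KO and 1394 in WT cDC1-like cells, followed by migratory DC-like cells at 1086 and 1162. Psmb9 stood at 774 in KO and 799 in WT cDC1-like cells, followed by 478 and 577 in migratory DC-like cells. In macrophage-like cells both were lower, with Psmb8 at 429 in KO and 407 in WT cells and Psmb9 at 178 in KO and 159 in WT cells. The next 3 genes were highest in other classes. Psmb10, the remaining inducible subunit, was highest in monocyte-like cells, at 250 in KO and 260 in WT cells, and lowest in neutrophil-like cells, at 15.8 and 44.7. In each library 10 of 11 neighbours in its order over 12 classes had overlapping intervals. Tapbp, which encodes tapasin, was highest in plasmacytoid DC (pDC)-like cells, at 345 in KO and 223 in WT cells. Nlrc5, the transactivator of class I genes, was highest in CD8 T cell-like cells, at 97.1 in KO and 94.5 in WT cells, and 25.6 and 20.04 in type 2 conventional DC (cDC2)-like cells.

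**Figure D1:**
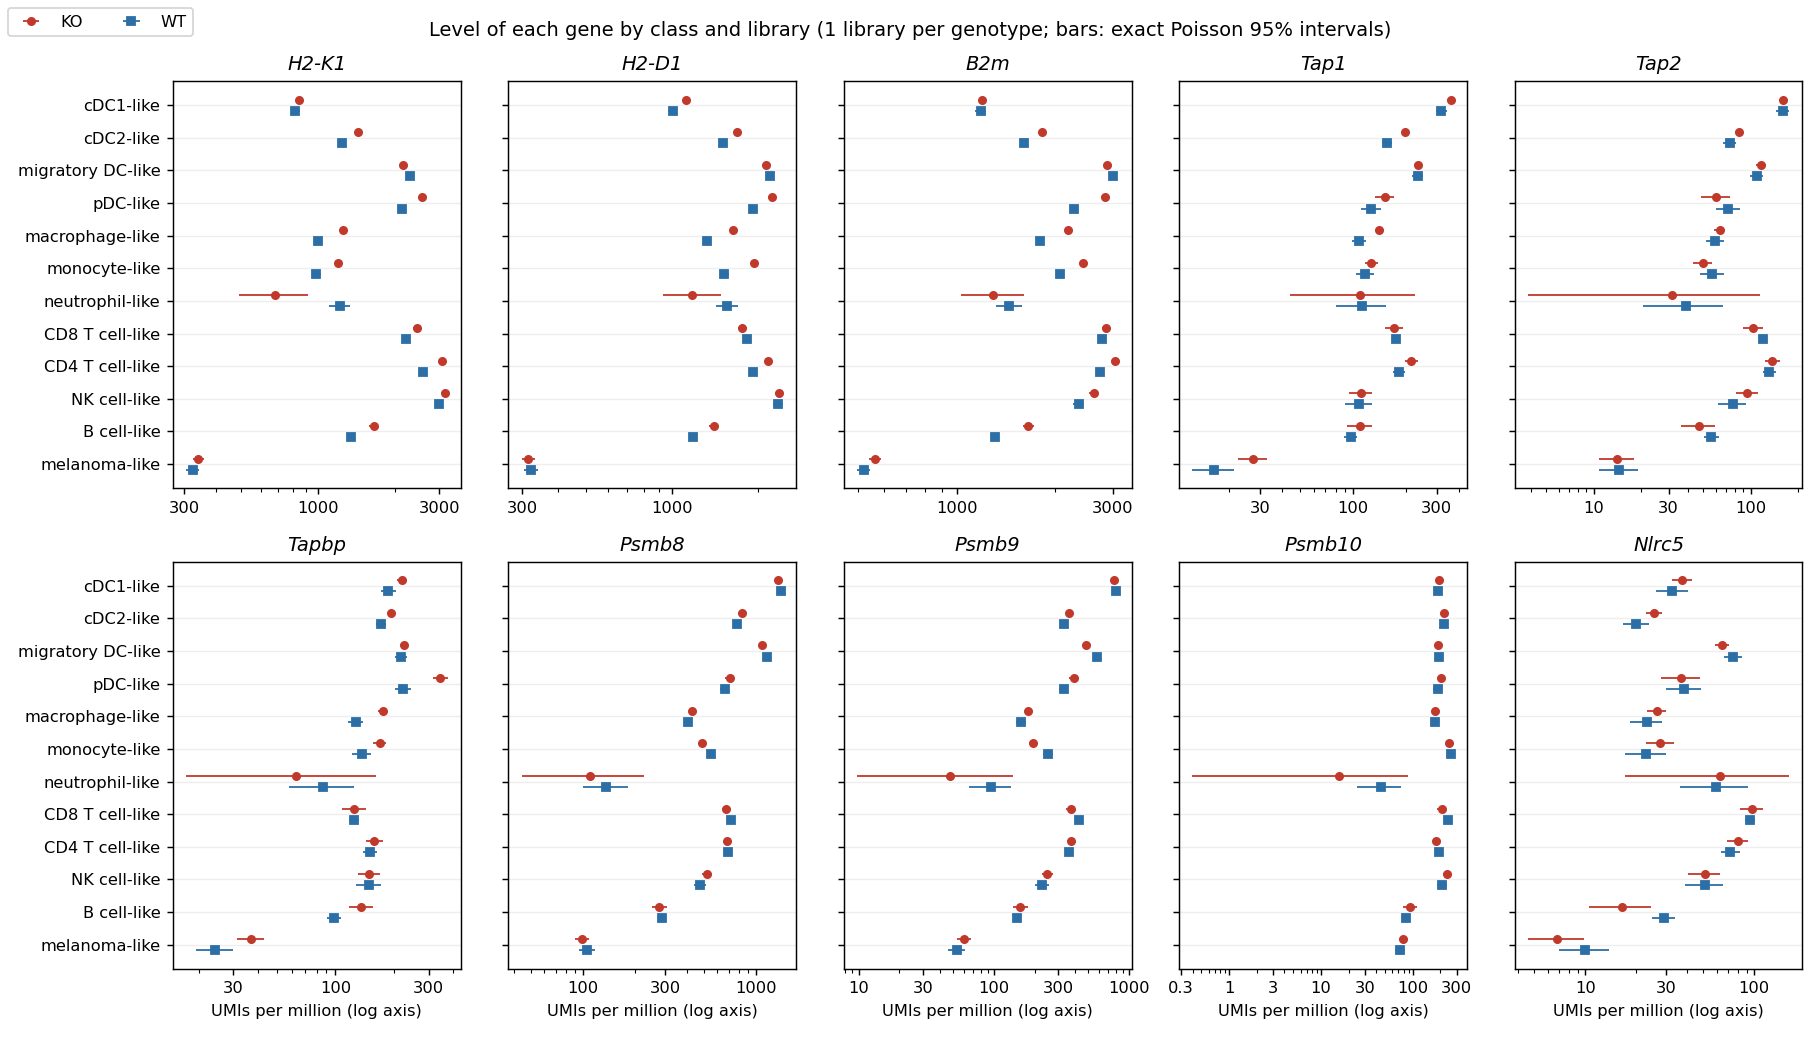
Level of each of the 10 genes (x axis, CPM, log scale) in 12 classes (y axis) in the KO library (red circles, above) and the WT library (blue squares, below), with exact Poisson 95% intervals. cDC1-like cells have the highest Tap1, Tap2, Psmb8 and Psmb9 and the lowest H2-K1, H2-D1 and B2m of the 10 immune classes compared between genotypes, and melanoma-like cells, pooled over all sizes, lie low for every gene.

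The cDC1-like class was thus highest of the 10 immune classes for 4 genes and lowest for all 3 chains, in both libraries. Set against the median of the other 9 classes, its level was 2.37-fold in KO and 2.51-fold in WT for Tap1, 1.99-fold and 2.11-fold for Psmb8, and 0.393-fold and 0.381-fold for H2-K1. Psmb10 and Nlrc5 did not stand apart there, at ranks 6 and 5 in KO and 7 and 6 in WT. With the 10 genes and interferon response genes left out of clustering, the same ranks at the top and bottom were found except for Psmb8 in the WT library, which was at rank 2. With only cells of at least 2000 UMIs, H2-K1 in the WT library was at rank 9.

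UMIs per cell, a scale added after the data were seen, gave another order for the chains. Cells of the cDC1-like class had a median of 15283.5 UMIs in KO and 12436.5 in WT, against 4593 and 3700.5 in NK cell-like cells. Per cell, cDC1-like cells averaged 12.6 H2-K1 UMIs in KO and 10.2 in WT, and NK cell-like cells 17.0 and 12.4. For H2-D1 and B2m the order of the classes turned. H2-D1 averaged 16.7 UMIs per cell in KO and 12.6 in WT cDC1-like cells, against 12.9 and 9.78 in NK cell-like cells. B2m did so too, with 17.8 UMIs per cell in KO and 14.7 in WT cDC1-like cells against 14.2 and 9.80 in NK cell-like cells. For Tap1 the order was the same on both scales, with 5.35 UMIs per cell in KO and 3.98 in WT cDC1-like cells against 0.605 and 0.450 in NK cell-like cells. Per cell, B cell-like cells were below cDC1-like cells for all 3 chains, with H2-K1 at 6.05 in KO and 4.11 in WT. The lowest place of cDC1-like cells for the chains thus held for the share of RNA and not for UMIs per cell, where B cell-like cells were lower. For H2-K1, cDC1-like cells stayed below NK cell-like cells on both scales. The other classes are not compared per cell here.

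Levels also varied between cells of a class. In cDC1-like cells the median H2-K1 was 7.64 UMIs per 10000 in KO and 7.24 in WT cells, with the 10th and 90th percentiles at 3.21 and 16.7 in KO and 3.02 and 17.2 in WT. In NK cell-like cells the median was 28.6 in KO and 27.2 in WT cells, with percentiles of 14.6 and 52.4 in KO and 11.5 and 47.7 in WT. The interquartile ranges of the 2 classes did not overlap: the 75th percentile of cDC1-like cells was 11.6 in KO and 12.1 in WT, below the 25th percentile of NK cell-like cells at 20.6 and 19.8. Psmb8 in cDC1-like cells had a median of 12.2 per 10000 in KO and 12.0 in WT cells.

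Detection followed the levels. After thinning every cell to 1000 UMIs, 37.2% of KO and 29.1% of WT cDC1-like cells had a Tap1 UMI, against 11.4% of KO and 11.5% of WT NK cell-like cells. Without thinning these shares were 93.5% and 87.9% in cDC1-like cells and 37.2% and 31.2% in NK cell-like cells. B2m was detected in 61.7% of KO and 59.7% of WT cDC1-like cells after thinning, against 93.0% in KO and 92.7% in WT among CD8 T cell-like cells. Nlrc5 was seldom detected at this depth, in 9% of thinned KO cells and 10.1% of thinned WT cells of the CD8 T cell-like class. Its shares in macrophage-like cells were 3.16% in KO and 2.39% in WT. The log2 ratio of its CPM there had an interval that held 0 (0.19, −0.17 to 0.57), so these shares are not read as a difference.

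The share of inducible subunits within each catalytic pair was high in immune classes and low in melanoma-like cells. The share is the UMIs of the inducible gene over those of the pair; it depends on how well each 3' end is captured and is compared only between classes and libraries. Psmb8 made up 90.8% of Psmb8 plus Psmb5 in KO and 91.5% in WT migratory DC-like cells, and 29.8% and 31.1% in melanoma-like cells. Psmb9 made up 71.8% of Psmb9 plus Psmb6 in KO and 71.5% in WT cDC1-like cells, and 16.4% and 15.5% in melanoma-like cells. Psmb10 made up 72.1% of Psmb10 plus Psmb7 in KO and 72.4% in WT CD8 T cell-like cells, and 31.5% and 29.6% in melanoma-like cells. Macrophage-like cells stood low among immune classes for Psmb9, at 45.8% in KO (44.1 to 47.5%) and 40.5% in WT (38.0 to 43.1%).

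Between genotypes these shares moved by a few percentage points in both directions. In macrophage-like cells Psmb8 made up 79.1% in KO and 75.4% in WT cells, and in cDC2-like cells the Psmb9 share was 60.3% in KO and 56.2% in WT cells. Those shares were higher in KO cells, with intervals that did not overlap. In migratory DC-like cells the Psmb9 share was lower, at 70.6% in KO (69.2 to 71.9%) and 74.1% in WT (72.4 to 75.7%). In those cells T cell markers stood at 114 CPM in KO and 655 in WT, CD8 T cell markers at 3693 and 5832 and B cell markers at 41.1 and 262; their part in the result was not tested. In B cell-like cells the Psmb8 share was also lower, at 73.1% in KO and 78.9% in WT cells.

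**Figure D2:**
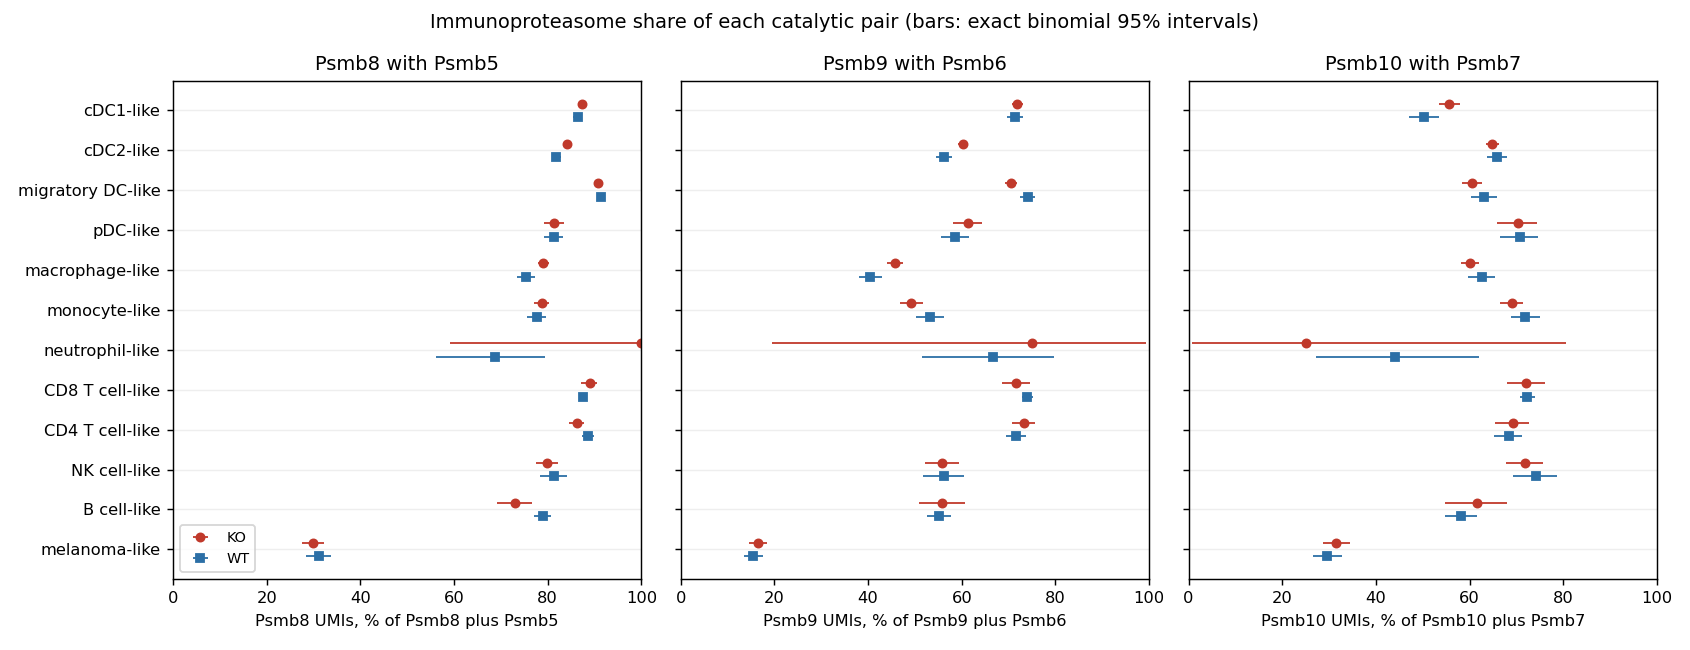
Share of the inducible subunit in each catalytic pair (x axis, percent of the UMIs of both genes) in 12 classes (y axis), KO library in red circles above and WT library in blue squares below, with exact binomial 95% intervals. Melanoma-like cells lie at 15.5 to 31.5%, left of all 10 immune classes compared between genotypes, and the wide neutrophil-like bars reflect few counts.

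The order of the 10 immune classes was alike within 2 sets of genes. Spearman's rho over the 10 classes was 0.81 in KO and 0.87 in WT between H2-K1 and H2-D1, 0.71 and 0.77 between H2-K1 and B2m, and 0.76 and 0.78 between B2m and Nlrc5. In the other set, rho was 0.93 in KO and 0.96 in WT between Psmb8 and Psmb9, 0.87 and 0.98 between Tap1 and Psmb9, and 0.83 and 0.83 between Tap1 and Tap2. Between the 3 chains and Tap1, Tap2, Psmb8 and Psmb9 it was lower. In KO it ran from −0.16 between H2-K1 and Tap1 to 0.32 between B2m and Psmb9. In WT it ran from −0.08 between H2-K1 and Psmb8 to 0.32 between B2m and Tap2. Nlrc5 went with genes of both sets, with 0.73 in KO and 0.61 in WT for Tap2. These are descriptions over classes that share a library, with no test. Over single cells of a class thinned to 1000 UMIs, the median correlation over 20 class and library combinations was 0.16 for H2-K1 with H2-D1 and 0.03 for H2-K1 with Tap1, too weak to read in counts this sparse.

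By the likeness of class profiles, genes near to the mean profile of the 10 were Sumo2, Arpp19, Dnajb6, Krcc1, 3830406C13Rik, Ubl5, Serpinb6b, Polr2g and Mob3a. They were ranked by the smaller of the KO and WT Spearman's rho over 10 classes among 2887 genes. Sumo2, which encodes a small ubiquitin-like modifier, had rho of 0.92 in KO and 0.95 in WT. Among the 9 of the 10 genes with a mean of at least 50 CPM, which leaves out Nlrc5, Psmb9 was nearest to their mean, at 0.85 in KO and 0.87 in WT, and Psmb10 was farthest, at 0.04 and 0.32.

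Between genotypes the 10 genes differed little within immune classes. A gene was called higher or lower where its log2 ratio of KO over WT was at least 0.5 in size and it had at least 50 UMIs over both libraries. Of 100 gene and class values in the 10 immune classes, 1 was called higher and 1 lower. Over all genes measured in the same classes, 7.59% of 83241 values were called higher and 7.84% lower. Most of the 10 genes are well expressed, and calls are fewer among such genes: at 100 or more CPM, 1.503 to 5.47% of genes were called higher and 0.385 to 5.85% lower, depending on the class. Nlrc5 stayed under 100 CPM in all 10 immune classes, and Tap2 did so in several. These shares therefore do not cover the 1 lower call, Nlrc5 in B cell-like cells, at 16.5 CPM in KO and 29.1 in WT cells. Whether either call would recur in another pair of libraries was not tested.

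By class, the shares of all genes called higher and lower in KO were 10.3% and 5.22% in macrophage-like cells, 9.13% and 7.71% in monocyte-like cells, 7.68% and 3.9% in cDC1-like cells and 6.92% and 5.23% in cDC2-like cells. They were 6.82% and 11.9% in migratory DC-like cells, 6.35% and 6.41% in pDC-like cells, 8.64% and 8.18% in CD8 T cell-like cells and 8.63% and 5.75% in CD4 T cell-like cells. In NK cell-like cells they were 4.99% and 7.64%, and in B cell-like cells 5.72% and 16.3%. Of the 10 genes, none was called in 8 of these classes, 1 was called higher in pDC-like cells and 1 lower in B cell-like cells.

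The chains were mostly a little higher in KO cells. H2-K1 had a log2 ratio above 0 in 9 of 10 classes, with the counting interval above 0 in 8 and below 0 in 1. It ranged between −0.10 in migratory DC-like cells and 0.34 in macrophage-like cells. H2-D1 ranged between −0.06 in CD8 T cell-like cells and 0.34 in monocyte-like cells, and B2m between −0.06 in migratory DC-like cells and 0.33 in B cell-like cells. All 3 chains thus stayed under the call limit in every immune class.

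In macrophage-like cells H2-K1 stood at 1262 CPM in KO and 1000 in WT cells (log2 ratio 0.34, 0.28 to 0.39). B2m stood at 2185 in KO and 1796 in WT cells (0.28, 0.24 to 0.32), and Tap1 at 142 in KO and 109 in WT cells (0.38, 0.22 to 0.55). Tapbp had the highest ratio there, at 174 in KO and 127 in WT cells (0.46, 0.31 to 0.61). Of the 10 genes, 9 had a ratio above 0, with Psmb10 at −0.02, and their median of 0.24 compares with 0.05 over 8980 genes. Summed markers of other cells also differed in these cells: the 8 T cell markers, none of them at 0, stood at 17.0 CPM in KO and 103 in WT cells, B cell markers at 67.5 and 297, and neutrophil markers at 170 and 351. Their part in the result was not tested.

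Tap1 and Tapbp went the same way as the chains. Tapbp was above 0 in 10 of 10 classes and Tap1 in 9, with the interval above 0 in 6 and 4 classes. Tap2 was above 0 in 6 classes, with the interval above 0 in 1. The immunoproteasome genes did not lean to one side: Psmb8 was above 0 in 4 of 10 classes, Psmb9 in 6 and Psmb10 in 4. Psmb9 had its lowest ratio in monocyte-like cells, at 196 CPM in KO and 252 in WT cells (−0.37, −0.52 to −0.21). Its ratio was also low in migratory DC-like cells (−0.27, −0.35 to −0.19). In monocyte-like cells the monocyte markers summed to 10792 CPM in KO and 7902 in WT. T cell markers there summed to 18.1 and 86.1, and B cell markers to 105 and 232. Their part in the result was not tested.

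**Figure D3:**
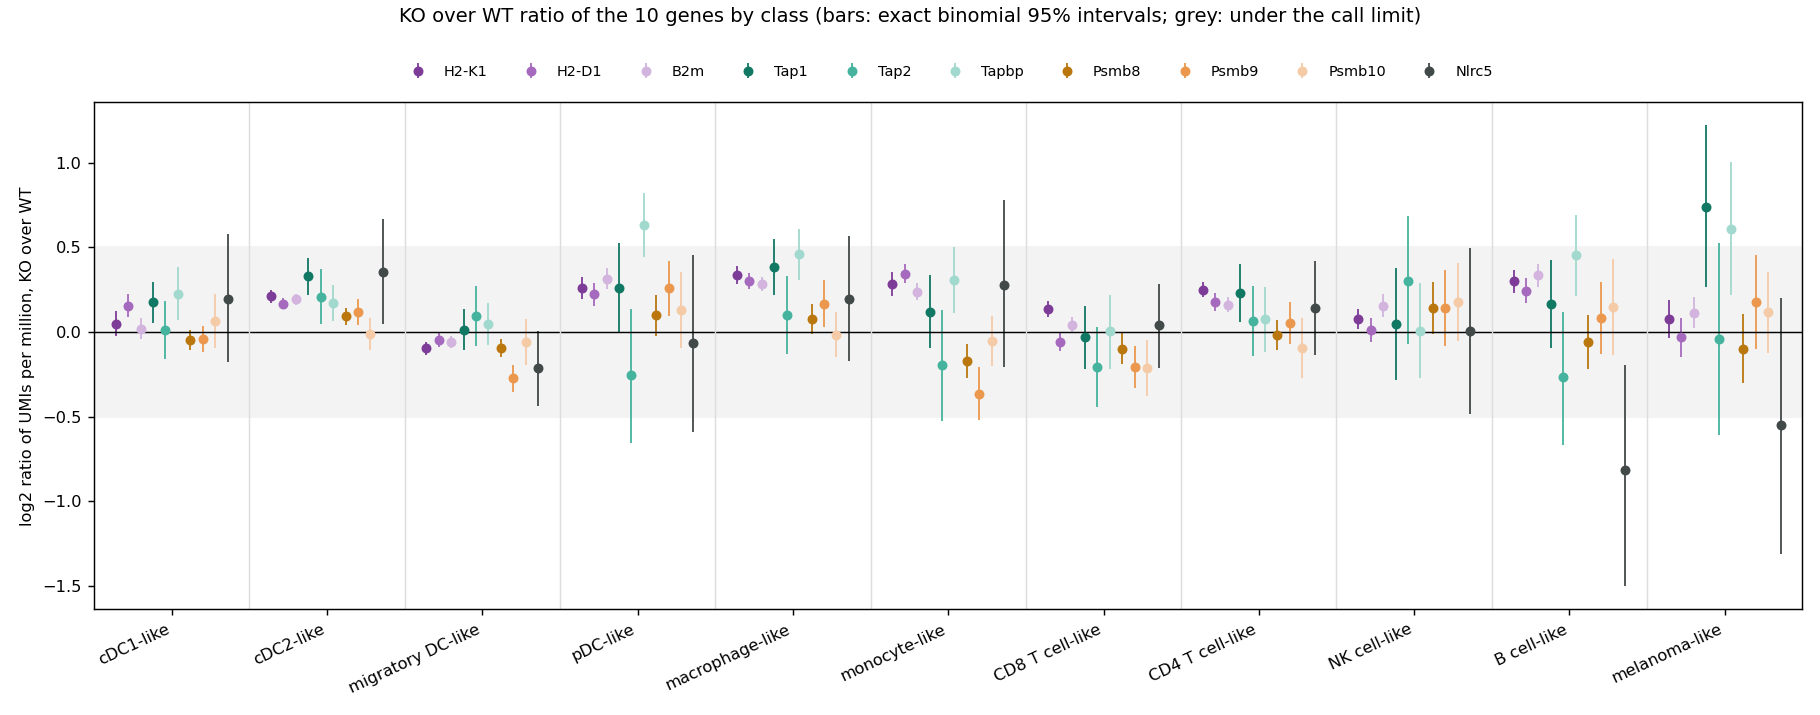
Log2 ratio of CPM, KO over WT (y axis), of the 10 genes (colours) in 11 classes (x axis), with exact binomial 95% intervals. Most points lie inside the grey band of ±0.5, and those outside are Tapbp in pDC-like cells at 0.63, Nlrc5 in B cell-like cells at −0.82, and Tap1, Tapbp and Nlrc5 in melanoma-like cells.

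Tapbp in pDC-like cells was the 1 value called higher. It stood at 345 CPM in KO and 223 in WT cells (0.63, 0.44 to 0.82; 533 and 415 UMIs). In the larger pDC-like cluster alone it stood at 346 in KO and 234 in WT cells (0.56). With equal weight per cell the ratio was 0.88. With at most 10% mitochondrial UMIs it was 0.44, under the limit; that setting placed 229 KO and 314 WT cells in the class, against 163 and 308. The 5 erythroid markers, of which 4 were at 0 in KO and 1 in WT cells, summed to 1.29 CPM in KO and 2847 in WT pDC-like cells, and the T cell markers to 80.9 and 622. Their part in the result was not tested.

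Nlrc5 in B cell-like cells was the 1 value called lower. It stood at 16.5 CPM in KO and 29.1 in WT cells (−0.82, −1.50 to −0.19), from 24 and 164 UMIs. The class is made of cluster 4, with 333 KO and 897 WT cells, and cluster 5, with 66 and 952 cells and medians of 1155 and 1256 UMIs per cell. The ratio was −0.62 in cluster 4 (−1.39 to 0.09; 21 and 78 UMIs) and −1.48 in cluster 5 (−3.79 to 0.11; 3 and 86 UMIs). With only cells of at least 2000 UMIs it was −0.41, under the limit, and with equal weight per cell it was −1.54. T cell markers stood at 70.0 CPM in KO and 202 in WT B cell-like cells, and plasma cell markers at 4802 and 1107; their part in the result was not tested.

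Nlrc5 also differed between the clusters within a class, in both libraries. In migratory DC-like cells it stood at 219 CPM in KO and 247 in WT cells of cluster 15, against 54.0 and 58.2 in cluster 7. Cells of cluster 15 had medians of 2472.5 UMIs in KO and 2022 in WT, 7.95% and 9.35% ribosomal UMIs, and 180871 and 164264 CPM of the nuclear RNA Malat1, a gene chosen after its values were seen. B2m went the other way, at 1426 in KO and 1544 in WT cells of cluster 15 and 2980 and 3145 in cluster 7. Between these clusters, higher Nlrc5 went with fewer UMIs per cell, a lower ribosomal share and more Malat1. The same held in pDC-like cells, with 62.6 in KO and 66.0 in WT in cluster 21 and 36.3 and 36.2 in cluster 13. In macrophage-like cells, cluster 20 had fewer UMIs per cell than cluster 2, yet less Nlrc5, at 15.1 and 15.4 against 26.7 and 23.7. Cluster 20 also had a higher ribosomal share and less Malat1. B cell-like clusters differed in direction between the libraries. The part of these measures in the result was not tested. Over all immune cells pooled, Nlrc5 had a log2 ratio of −0.47 while 7 of 10 classes were above 0. The make-up of the pools differed, with CD8 T cell-like cells at 5.37% of KO and 17.0% of WT immune cells.

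In the remaining classes the median log2 ratio of the 10 genes was 0.18 in monocyte-like and cDC2-like cells, 0.11 in CD4 T cell-like and NK cell-like cells and 0.06 in cDC1-like cells. It was 0.24 in pDC-like and 0.16 in B cell-like cells, where the median over all genes was 0.03 and −0.11. It was −0.06 in migratory DC-like and −0.04 in CD8 T cell-like cells. In the other classes named here the median over all genes lay between −0.06 and 0.02.

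Other genes of the pathway are given beside the 7.59% of all values called higher and 7.84% called lower, and shares near these are no result about a list. Of 100 values of 16 nonclassical class I genes, 5 were called higher and 4 lower (5% and 4%), and of 99 values of the peptide loading and trimming genes, 6 and 5 (6.06% and 5.05%). The constitutive catalytic subunits had no call in 30 values, and the other 20S proteasome genes had none higher and 1 lower in 110. Among these, H2-T22, a nonclassical class I gene, stood at 73.6 CPM in KO and 46.7 in WT macrophage-like cells (0.66, 0.41 to 0.90). Regulators of class I genes had 11 values called higher and 2 lower of 142 (7.75% and 1.41%). In macrophage-like cells these were 4 of 15, with Rfx5, a subunit of the complex that binds MHC promoters, highest at 0.67 on 75 KO and 21 WT UMIs (−0.05 to 1.44).

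The type I interferon response genes had a higher median ratio than the class I presentation genes in 8 of the 10 immune classes, and a lower one in NK cell-like and B cell-like cells. In macrophage-like cells 16 of 18 were called higher and none lower, with a median log2 ratio of 1.26, and Ifit3, an antiviral gene, stood at 69.2 CPM in KO and 12.0 in WT cells (2.53, 2.10 to 3.01). In monocyte-like cells 14 of 18 were called higher and 1 lower (median 0.88), and in cDC2-like cells 13 of 18 and none (0.72). In NK cell-like cells 2 of 8 were called higher and none lower, with a median of 0.01. In all 10 immune classes together 78 of 143 values were called higher and 3 lower. The median of the 10 class I presentation genes in these classes went no higher than 0.24.

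Interferon-gamma response genes and MHC class II genes had no single direction. In cDC2-like cells 8 of 11 interferon-gamma response genes were called higher (median 0.60), with Socs1, a feedback inhibitor of cytokine signalling, at 23.4 CPM in KO and 10.0 in WT cells (1.22). In monocyte-like cells 4 of 11 were called lower (−0.42), with Iigp1 lowest at 13.6 in KO and 57.1 in WT cells (−2.06). Class II genes were called lower for 9 of 10 in monocyte-like cells (−0.91), with H2-Oa lowest at −2.31, and for 0 of 10 in cDC2-like cells. In those monocyte-like cells the chains H2-K1, H2-D1 and B2m had log2 ratios of 0.28, 0.34 and 0.24. Marker sums of this class differed between the libraries, as given above, and their part in these ratios was not tested.

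**Figure D4:**
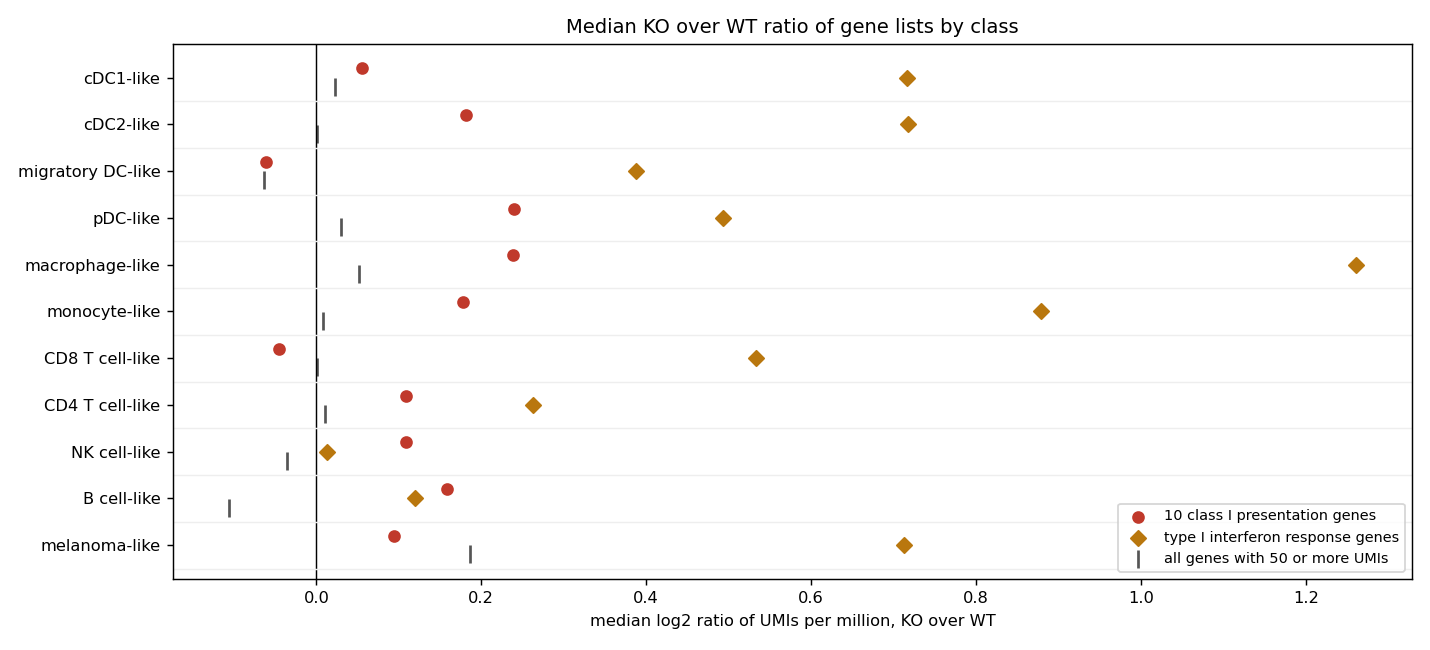
Median log2 ratio of CPM, KO over WT (x axis), in 11 classes (y axis) for the 10 class I presentation genes (red circles), type I interferon response genes (orange diamonds) and all genes with at least 50 UMIs (grey ticks). In macrophage-like cells the medians are 0.24, 1.26 and 0.05.

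Melanoma-like cells, led by Dct, Mlana and Pmel, had lower levels of all 10 genes, over their pooled UMIs, than any of the 10 immune classes compared between genotypes. This describes mainly the largest cells of the class, which held most of its UMIs. The class held 95 KO and 127 WT cells, under the limit of 100 cells in the KO library, so its ratios are given apart. B16F10 cells were injected into both groups of mice, and Cre and the floxed allele belong to the host. These cells were present although the sort was for CD45. Levels of the 10 genes in this class were 12.9 to 39.9% of those in all immune cells of the KO library and 9.90 to 38.5% in the WT library. The leukocyte genes used as a gauge were Ptprc, Laptm5, Coro1a, Cd52, Tyrobp and Cd74. They stood at 1.48 to 5.53% of their immune level in KO and 1.38 to 7.25% in WT melanoma-like cells. Tyrobp gave the lowest share in KO and Cd74 in WT. Cd74 is uneven over immune classes, at 280 CPM in KO CD8 T cell-like and 27325 in KO cDC2-like cells. All 10 genes thus lay above the level that leukocyte RNA reached in the same cells. This gauge holds leukocyte genes only. The part of RNA from other host cells in the levels of the 10 genes was not tested, so these levels are not those of melanoma cells alone.

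Over the whole class, 2 of the 10 genes were called higher in KO cells and 1 lower, against 19.7% and 7.79% of 9565 genes. Tap1 stood at 27.1 CPM in KO and 16.3 in WT cells (0.73, 0.26 to 1.22) and Tapbp at 37.0 and 24.3 (0.61, 0.22 to 1.01). Nlrc5 stood at 6.83 in KO and 10.0 in WT cells (−0.55, −1.31 to 0.20). The median of the 10 genes was 0.09, below the 0.19 over all genes. The part of RNA from other cells in the ratios of this class was not tested, so they do not compare melanoma cells alone. With the shared barcodes left out, 50 KO and 82 WT cells remained, 9 of the 10 genes were called higher and none lower, and the median was 0.80. Of 7970 genes in the same cells, 19.2% were called higher and 8.36% lower, with a median of 0.14. H2-K1 then stood at 574 in KO and 320 in WT cells (0.84) and B2m at 762 and 512 (0.57). Of 8 interferon-gamma response genes with enough UMIs in the whole class, 6 were called higher and 1 lower (median 1.26), between 2.24 for Iigp1 and −1.62 for Cxcl9.

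The class was made of cells that differed in total UMIs, so it was split at 2000 and 50000 UMIs per cell after the data were seen. Cells above 50000 UMIs were 25 in KO and 23 in WT and held 94.0% and 82.1% of the UMIs of the class. Their leukocyte genes summed to 324 CPM in KO and 326 in WT cells. Below 2000 UMIs there were 58 KO and 69 WT cells, of which 34 and 39 had a shared barcode. The leukocyte genes of all these small cells summed to 4816 and 3663 CPM. The chains in these small cells lay at levels of immune classes. H2-D1 stood at 3056 CPM in KO and 2085 in WT cells (125 and 107 UMIs), H2-K1 at 2054 and 1948 (84 and 100 UMIs) and B2m at 1760 and 1831 (72 and 94 UMIs). Tap1 had 5 UMIs in each library. The part of leukocyte RNA in these levels was not tested.

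In the cells above 50000 UMIs, the 10 genes together stood at 1335 CPM in KO and 1038 in WT cells (log2 ratio 0.36, 0.30 to 0.43). By gene, Tapbp stood at 35.6 in KO and 16.4 in WT cells (1.12, 0.64 to 1.63), Tap1 at 23.05 and 11.8 (0.96, 0.38 to 1.57), Psmb9 at 52.4 and 32.7 (0.68, 0.32 to 1.05) and B2m at 518 and 377 (0.46, 0.35 to 0.57). Nlrc5, at 22 and 24 UMIs, had a ratio of −0.60 (−1.50 to 0.30). These intervals count UMIs and not cells, and a few cells carried the sums. The highest KO cells held the 10 genes at 0.63%, 0.59% and 0.53% of UMIs, and leukocyte genes at 0.13%, 0.23% and 0.11%. The next KO cells, at 0.30% and 0.29% for the 10 genes, held leukocyte genes at 0.018% and 0.038%. The part of leukocyte RNA in these sums was not tested.

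Per cell, the share of the 10 genes ran between 236 and 6281 CPM in KO cells above 50000 UMIs, with a median of 611, and between 270 and 4852 in WT cells, with a median of 694. The ranges overlapped over nearly their whole length, and the median was lower in KO cells while the sum was higher. The direction also turned with the shared barcodes. Among cells above 50000 UMIs whose barcode was in 1 library only, the 10 genes together stood at 1978 CPM in 14 KO cells and 781 in 17 WT cells (1.34). Among those with a shared barcode they stood at 841 in 11 KO cells and 1481 in 6 WT cells (−0.82). The direction between genotypes in melanoma-like cells thus depended on which cells were counted.

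**Figure D5:**
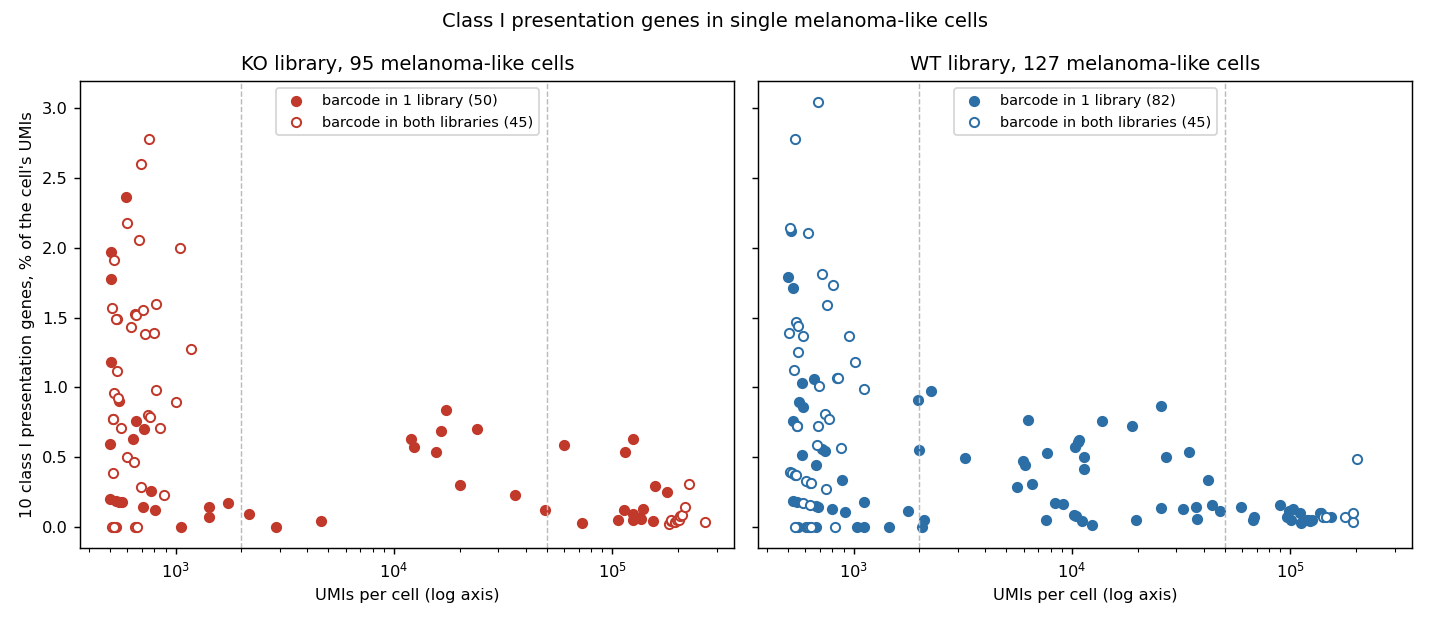
Summed share of the 10 genes (y axis, percent of the cell's UMIs) against UMIs per cell (x axis, log scale) for melanoma-like cells of the KO library (left) and the WT library (right), with open circles for barcodes found in both libraries and dashed lines at 2000 and 50000 UMIs. Among cells above 50000 UMIs most lie near the bottom, and several KO cells and 1 WT cell lie far above them.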

How the data were processed

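The deposited matrices hold raw counts of UMIs per gene and cell barcode, whole numbers with no normalization, from 1 KO and 1 WT library of 3 pooled mice each. Cell Ranger 3.1.0, bcl2fastq 2.20, Seurat 4.0.1 and the GRCm38 build are listed per the submitters' processing notes, while Cell Ranger 4.0.0 is named per the file headers. The authors' choice of barcodes was not given in the sources used here; the lowest deposited barcode held 500 UMIs.

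Barcodes under 200 genes or over 15% mitochondrial UMIs were removed. Scrublet called 2 KO and 0 WT doublets, which were removed, and so did not work as a filter. Other doublets were left in at this step, and an alternative removed the highest 6% of scores. Cells of both libraries were clustered together (scanpy 1.11.5, 2000 variable genes, 30 components, 15 neighbours, Leiden resolution 1) into 23 clusters. Clusters were named from marker lists, so class names are rebuilt and not the authors'. Among the reasons to leave a cluster unnamed was a mean Scrublet score of at least 0.15. This held for cluster 16, with 10 KO and 214 WT cells, and cluster 22, with 6 and 9. UMIs were summed per class and library and divided by the class total, as counts per 1000000 (CPM), with exact Poisson 95% intervals. Log2 ratios of KO over WT have exact binomial intervals (scipy 1.17.1), and genotypes were compared in classes of at least 100 cells in each library. UMI counts limit precision, and with 1 library per genotype no test was made. For shares of cells, each cell was thinned to 1000 UMIs and shallower cells were left out.

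The text names the 10 genes, of each other gene list those with the highest or lowest ratio in a class, the 10 genes nearest by class profile, of which 1 is not reported here, and Kcnj2 and Lyz2. The members and lists were chosen with earlier results of these data known. The counting and interval steps were tested on simulated data. Alternatives were other scalings, clustering settings and cell filters.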

Additional observations from a re-analysis of the deposited data

How the results depend on the processing

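The median log2 ratio of the 10 genes was recomputed under each alternative setting and class; 115 of these values stayed within the counting interval of the reported one and 10 did not. In migratory DC-like cells it was 0.0033 after centring on the median of all genes and 0.011 with equal weight per cell. It was 0.37 in pDC-like cells with equal weight per cell and 0.10 in macrophage-like cells with components centred per library. In melanoma-like cells it was 0.31 with equal weight per cell, −0.27 at resolution 0.5, 0.38 with the 10 genes and interferon genes left out of clustering and 1.07 with the highest 6% of doublet scores removed. Chosen after seeing the data, leaving out shared barcodes gave 0.80 and cells over 50000 UMIs alone gave 0.35. Tap1 in melanoma-like cells turned to −0.17 at resolution 0.5, and Nlrc5 there to 0.38 with the highest doublet scores removed; the cause was not tested. The range over settings was 0.10 to 0.33 in macrophage-like cells, where 0.33 came from resolution 0.5 with 48 KO and 64 WT cells, under the limit of 100, while an unnamed cluster held 1316 and 884. It was −0.27 to 1.07 in melanoma-like cells. Resolution 0.5 gave no monocyte-like class and so no value for it. No paired analysis was possible because there was 1 library per genotype. Depth limits Nlrc5 most, with 24 KO UMIs in B cell-like cells.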
